A study of Mus musculus with 10 samples.

Results

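The enzymes that write and remove 5-methylcytosine were followed through in vitro differentiation of mouse primordial germ cell-like cells (PGCLC) by droplet-based scRNA-seq. The group was fixed by name as 8 genes, namely the maintenance factors *Dnmt1* and *Uhrf1*, the de novo methyltransferases *Dnmt3a* and *Dnmt3b* with their catalytically inactive partner *Dnmt3l*, and the dioxygenases *Tet1*, *Tet2* and *Tet3*. All 8 were found among the 27998 genes of the E14Tg2a table and among the 32285 genes of the R1 table. E14Tg2a and R1 are wild-type mouse embryonic stem cell (ESC) lines. In E14Tg2a, 8 libraries were made, and in R1 2 libraries.

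The first library, 2i ESC, was grown in N2B27 medium with a MEK inhibitor, a GSK3β inhibitor and LIF, and S+L ESC were grown in serum with LIF. Epiblast-like cells (EpiLC) were plated from 2i ESC on fibronectin with Activin A, bFGF and knockout serum replacement and taken at d1, d2 and d3. Epiblast stem cells (EpiSC) had been passaged in Activin A and bFGF for over a week. Embryoid bodies (EB) were aggregated from d2 EpiLC in GK15 medium with BMP4, SCF, LIF and EGF and taken at d2 and d4. The study lists 91 cells of d2 EB and 44 cells of d4 EB as PGCLC, found by its own clustering on the genes of these cells, so that differences between listed and other EB cells describe that split and were not tested. The R1 libraries were d4 EB of WT cells and of a clone, dCD, that carries point mutations in the catalytic domains of MLL3 and MLL4 (genes *Kmt2c* and *Kmt2d*) and were compared only with each other, because they were made with another kit.

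DNA methylation at CpG dinucleotides is laid down on unmethylated DNA by the de novo enzymes and copied after replication by DNMT1, which UHRF1 brings to hemimethylated sites. TET enzymes oxidise 5-methylcytosine, which opens the way to its loss by dilution or repair. Naive ESC in 2i and germ cells at their specification are known for low global methylation, whereas the epiblast after implantation is known for its gain.

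Each condition had 1 library, so library and condition cannot be told apart, and no test of a difference between conditions was possible. For a level, the unique molecular identifiers (UMIs) that a gene had in all cells of a group were added and expressed per 1000000 UMIs of the group (CPM). CPM have exact 95% Poisson intervals and ratios of CPM exact conditional ones. These intervals cover counting error only. A gene was called higher or lower where the log2 ratio with 1 CPM added to both groups was at least 1 in size and both groups together held at least 10 UMIs. The E14Tg2a libraries held 227 to 537 cells with medians of 21658 to 36750 UMIs per cell, and the R1 libraries held 1416 and 1699 cells with medians of 13187.5 and 11751 UMIs. Of the barcode sequences, 8 occurred in 2 or more E14Tg2a libraries, 1 was shared by d2 and d4 EB, and 0 were shared by the R1 libraries. In a summed library, fewer cells of a type and less RNA per cell cannot be told apart. *Kmt2c* and *Kmt2d* were read at 47.5 and 29.4 CPM in WT and at 53.8 and 29.1 CPM in dCD, and point mutations need not lower a transcript.

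The promoters of the members differ in CpG content. Over the 300 bases around each RefSeq start (250 before and 50 after, GRCm38.p6), the 8 genes have 15 annotated starts. The single start of *Tet2* holds 57 CpGs, more than 99.8% of all promoters, and the median of all promoters is 7. The leading start of *Dnmt3a* holds 46 CpGs and that of *Dnmt3b* 30, whereas the 3 starts of *Dnmt3l* hold 6, 4 and 3. The 250 bases before a start follow, 5′ to 3′ on the gene's strand, with each CpG in capitals, for a pair of CpG-rich and CpG-poor members of the de novo machinery and for *Tet2*.
Dnmt3a, chr12:3806730-3806979, plus strand, 38 CpGs: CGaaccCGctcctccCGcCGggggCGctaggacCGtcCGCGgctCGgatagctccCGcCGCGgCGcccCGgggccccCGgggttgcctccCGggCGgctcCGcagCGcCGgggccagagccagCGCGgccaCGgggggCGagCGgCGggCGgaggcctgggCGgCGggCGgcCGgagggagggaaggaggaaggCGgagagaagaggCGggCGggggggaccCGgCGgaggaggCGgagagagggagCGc
Dnmt3b, chr2:153649199-153649448, plus strand, 21 CpGs: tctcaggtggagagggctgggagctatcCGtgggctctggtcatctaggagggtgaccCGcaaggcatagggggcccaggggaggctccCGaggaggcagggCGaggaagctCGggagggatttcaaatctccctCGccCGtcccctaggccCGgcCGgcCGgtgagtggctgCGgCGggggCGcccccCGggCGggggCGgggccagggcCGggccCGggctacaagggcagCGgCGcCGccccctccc
Dnmt3l, chr10:78049592-78049841, plus strand, 4 CpGs: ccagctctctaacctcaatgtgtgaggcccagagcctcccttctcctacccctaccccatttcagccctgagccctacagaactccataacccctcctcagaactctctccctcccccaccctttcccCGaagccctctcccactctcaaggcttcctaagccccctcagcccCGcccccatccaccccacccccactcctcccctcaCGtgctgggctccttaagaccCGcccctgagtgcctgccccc
Tet2, chr3:133544391-133544640, minus strand, 51 CpGs: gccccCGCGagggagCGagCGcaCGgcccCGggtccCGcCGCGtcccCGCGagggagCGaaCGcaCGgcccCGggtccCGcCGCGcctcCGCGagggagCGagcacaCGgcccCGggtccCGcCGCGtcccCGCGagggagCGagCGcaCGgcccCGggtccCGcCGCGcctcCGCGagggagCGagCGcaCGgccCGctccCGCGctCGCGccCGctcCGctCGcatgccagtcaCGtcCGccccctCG

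The windows of *Dnmt3a*, *Dnmt3l* and *Tet2* lie within the annotated span of the gene but overlap no annotated exon, and the window of *Dnmt3b* lies just before its first exon and within the span of the antisense RNA *Dnmt3bos*. CpG methylation itself was not measured in these libraries.

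E2F words, the 8-letter sites TTTCCCGC, TTTCGCGC, TTTGCCGC and TTTGGCGC on either strand, are linked to genes of the cell cycle and were found in 2.26% of 32851 promoter windows. Of the 15 member windows, 2 held any, at a start of *Dnmt1* (2 words) and at a start of *Uhrf1* (1 word), the pair of maintenance factors. The other starts of these genes held none. The window of *Uhrf1* is shown with its E2F word in capitals, which begins 185 bases before the start.
Uhrf1, chr17:56304063-56304312, plus strand: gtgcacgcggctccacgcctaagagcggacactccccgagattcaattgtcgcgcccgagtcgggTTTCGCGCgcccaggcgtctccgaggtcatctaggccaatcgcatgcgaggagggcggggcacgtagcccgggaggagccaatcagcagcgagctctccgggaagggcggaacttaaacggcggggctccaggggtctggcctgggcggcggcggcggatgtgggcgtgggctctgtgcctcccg

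A match is a string of letters and no measure of binding. All coordinates are on GRCm38. The gene bodies are *Dnmt1* at chr9:20907209-20959888 (minus strand), *Uhrf1* at chr17:56303321-56323486 (plus), *Dnmt3a* at chr12:3806007-3914443 (plus), *Dnmt3b* at chr2:153649450-153687730 (plus), *Dnmt3l* at chr10:78041947-78063622 (plus), *Tet1* at chr10:62804570-62908996 (minus), *Tet2* at chr3:133463679-133545139 (minus) and *Tet3* at chr6:83362373-83459084 (minus). Genes on the other strand overlap *Dnmt3a* (*Dnmt3aos*), *Dnmt3b* (*Dnmt3bos*), *Dnmt3l* (*Aire*), *Tet2* (*Gm42567*) and *Tet3* (*B230319C09Rik*). UMI counts per gene do not tell isoforms apart, so the long and short forms of *Dnmt3a* and *Tet1* and the oocyte and somatic forms of *Dnmt1* were read together.

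**Figure D1:**
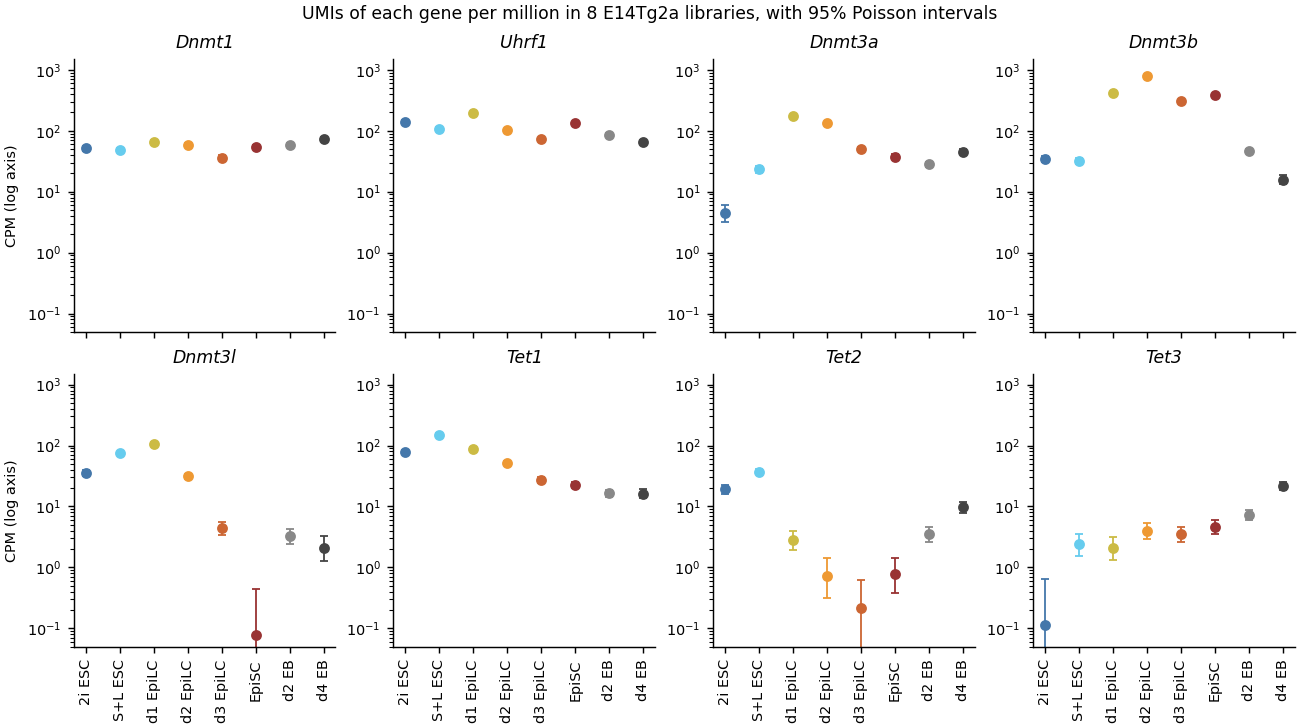
Level of each of the 8 genes in CPM (log axis) in the 8 E14Tg2a libraries, with points for the summed UMIs of a library and bars for exact 95% Poisson intervals. The de novo genes peak in d1 or d2 EpiLC, *Tet1* and *Tet2* are highest in S+L ESC, and *Tet3* is highest in d4 EB.

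Exit from the naive state was marked by a steep gain of de novo methyltransferase transcripts and a near loss of *Tet2*. From 2i ESC to d1 EpiLC, 4 members were higher (*Dnmt3a*, *Dnmt3b*, *Dnmt3l* and *Tet3*) and 1 was lower (*Tet2*), where 12.1% of 12479 genes tested were higher and 6.54% lower. The maintenance factors moved little by comparison.

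*Dnmt3b*, the main de novo enzyme of the early epiblast, was read at 34.9 CPM in 2i ESC, 32.3 in S+L ESC, 413 at d1, 782 to 815 at d2 (the interval of 8907 UMIs in 289 cells) and 305 at d3 of EpiLC, 389.7 in EpiSC, 46.2 in d2 EB and 15.8 in d4 EB. The 4 epiblast libraries all stand well above the ESC and EB libraries, and only the neighbours 2i ESC and S+L ESC in this order lie within counting error of each other. The ratio of d1 EpiLC to 2i ESC was 11.8 (10.5 to 13.3), that of d2 to d1 EpiLC 1.93 (1.87 to 2.00), and d3 EpiLC stood 2.62-fold below d2 (2.52 to 2.72). Over the whole step from 2i ESC to d2 EpiLC the ratio was 22.8 (20.4 to 25.7), and over that step 3 members were called higher (*Dnmt3a*, *Dnmt3b* and *Tet3*) and 1 lower (*Tet2*), beside 16.0% and 6.49% of all genes.

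*Dnmt3a*, the second de novo enzyme, was read at 4.45 CPM in 2i ESC (39 UMIs in 227 cells), 23.2 in S+L ESC, 174 at d1, 132 at d2 and 50.5 at d3 of EpiLC, 37.3 in EpiSC, 28.0 in d2 EB and 45.3 in d4 EB. Its peak came a day before that of *Dnmt3b*, in d1 EpiLC, and at that stage it stood 39.1-fold above 2i ESC (28.5 to 55.1). It was 2.62-fold lower in d3 than in d2 EpiLC (2.39 to 2.87), and unlike *Dnmt3b* it was read at no higher level in EpiSC than in d3 EpiLC. Among the UMIs of both enzymes, *Dnmt3b* made up 70.3% in d1 EpiLC (69.2% to 71.5%), 85.8% in d2 EpiLC (85.1% to 86.5%) and 91.3% in EpiSC (90.5% to 92.0%), shares of UMIs that depend on how each transcript is captured.

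*Dnmt3l*, which has no catalytic activity and stimulates the de novo enzymes, had a briefer course. It was read at 35.1 CPM in 2i ESC, 74.2 in S+L ESC, 107 at d1, 31.2 at d2 and 4.40 at d3 of EpiLC and 0.0784 in EpiSC, where 1 UMI was found in 373 cells. In d2 and d4 EB it was read at 3.28 and 2.08 CPM. It rose 3.04-fold from 2i ESC to d1 EpiLC (2.68 to 3.46) and fell 3.42-fold to d2 (3.03 to 3.86) and 7.09-fold to d3 (5.39 to 9.44), so that d2 EpiLC, the stage from which PGCLC are induced, had the highest *Dnmt3b* together with a *Dnmt3l* level 1.12-fold below 2i ESC, a difference within counting error. EpiSC thus combined high *Dnmt3b* with almost no *Dnmt3l*. The study placed *Dnmt3l* in both its ESC and its EpiLC gene sets, which it chose on these cells.

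*Uhrf1*, which recognises hemimethylated DNA, was read at 141 CPM in 2i ESC, 108 in S+L ESC, 195 at d1, 101 at d2 and 72.0 at d3 of EpiLC, 133 in EpiSC, 86.5 in d2 EB and 66.1 in d4 EB. *Dnmt1*, the maintenance methyltransferase, ranged only from 36.1 CPM in d3 EpiLC (33.1 to 39.4) to 73.9 in d4 EB (68.6 to 79.6), with 51.8 in 2i ESC, 48.4 in S+L ESC, 64.5 and 59.4 at d1 and d2 of EpiLC, 53.3 in EpiSC and 59.0 in d2 EB. Neither was called from 2i ESC to d1 EpiLC, with ratios of 1.24 for *Dnmt1* and 1.38 for *Uhrf1*. *Uhrf1* stood 1.93-fold lower in d2 than in d1 EpiLC and 1.84-fold higher in EpiSC than in d3 EpiLC, and *Dnmt1* stood 1.64-fold lower in d3 than in d2 EpiLC. S phase markers (10 genes) summed to 784 CPM in 2i ESC, 612 in S+L ESC, 1063 at d1, 1037 at d2 and 599 at d3 of EpiLC, 816 in EpiSC, 649 in d2 EB and 605 in d4 EB. Of the libraries with the lowest sums, d3 EpiLC had the lowest *Dnmt1* and d4 EB the highest, and the part of the cell cycle in these levels was not tested.

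The TET genes went 3 ways. *Tet1*, the main dioxygenase of ESC, was read at 77.3 CPM in 2i ESC, 150.1 in S+L ESC, 88.7 at d1, 51.8 at d2 and 27.3 at d3 of EpiLC, 22.5 in EpiSC, 16.5 in d2 EB and 16.3 in d4 EB, a gradual decline after d1 in which no single step between neighbouring EpiLC stages reached 2-fold. *Tet2* was read at 19.1 CPM in 2i ESC, 37.1 in S+L ESC, 2.82 at d1, 0.717 (8 UMIs) at d2 and 0.213 (3 UMIs) at d3 of EpiLC, 0.784 in EpiSC, 3.48 in d2 EB and 9.68 in d4 EB. Its loss was early, with a level 6.77-fold lower in d1 EpiLC than in 2i ESC (4.59 to 10.3) and 26.6-fold lower in d2 EpiLC (13.2 to 62.6).

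*Tet3*, known best from oocytes and differentiated cells, was barely read in 2i ESC, with 1 UMI in 227 cells (0.114 CPM). It was read at 2.38 CPM in S+L ESC, 2.09 at d1, 4.03 at d2 and 3.48 at d3 of EpiLC, 4.62 in EpiSC, 7.24 in d2 EB and 21.8 in d4 EB. The ratio of d1 EpiLC to 2i ESC, 18.3, has an interval of 2.97 to 754 because it rests on that single UMI. Between 2i ESC and d2 EB, the order from low to high was d1 EpiLC, S+L ESC, d3 EpiLC, d2 EpiLC and EpiSC, in which no neighbours differed beyond counting error, although d2 EpiLC stood 1.93-fold above d1 EpiLC (1.14 to 3.34). The d4 EB interval of 18.9 to 24.9 CPM lies above that of every other library. *Tet3* made up 0.118% of the TET UMIs in 2i ESC (0.00300% to 0.658%), 7.13% in d2 EpiLC (5.25% to 9.43%) and 45.5% in d4 EB (40.9% to 50.2%), while the share of *Tet1* went from 80.1% in 2i ESC (77.3% to 82.8%) and 91.6% in d2 EpiLC (89.2% to 93.6%) to 34.2% in d4 EB (29.9% to 38.7%).

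Between later EpiLC stages and on to EpiSC, the few members called were all lower. From d1 to d2 EpiLC 0 members were called higher and 2 lower (*Dnmt3l* and *Tet2*), beside 9.91% and 6.28% of all genes. From d2 to d3 EpiLC 0 were higher and 3 lower (*Dnmt3a*, *Dnmt3b* and *Dnmt3l*), beside 3.44% and 3.10%. From d3 EpiLC to EpiSC 0 were higher and 1 lower (*Dnmt3l*, 62 UMIs against 1), beside 7.95% and 6.37%. The median log2 ratio of the members in these steps was -0.58, -0.80 and 0.34, beside 0.10, -0.02 and 0.13 over all genes.

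Summed naive pluripotency markers went from 1483 CPM in 2i ESC to 313 in d1 EpiLC and 52.4 in d2 EpiLC, and summed formative and primed markers went from 19.4 to 469 and 417 CPM in the same libraries, which is the course that the labels describe. Another 34 genes of the pathway were counted in the same way. From 2i ESC to d1 EpiLC 6 of 33 tested were higher and 2 lower, with a median log2 ratio of 0.34 beside 0.17 over all genes. Those higher were *Hells*, a remodeler needed for de novo methylation (186 to 636 CPM), *Mat2a*, which makes the methyl donor (85.0 to 281 CPM), *Mbd3* (162 to 379.5 CPM), *Gadd45a*, *Gadd45g* (2.28 to 59.6 CPM) and *Cxxc4*, which had 0 UMIs in 2i ESC and 11 in d1 EpiLC. Those lower were *Prdm14*, a repressor of de novo methyltransferases in naive cells (9.82 to 0.364 CPM), and *Gadd45b*. *Hells* and *Mat2a* fell back to 283 and 107 CPM in d2 EpiLC, where 0 of 32 partners were higher and 6 lower, with *Dppa3*, *Zfp57*, *Gadd45a* and *Gadd45g* beside them. From d2 to d3 EpiLC 1 partner was higher (*Gadd45b*, 2.51 to 60.7 CPM) and 3 were lower (*Dppa3*, *Apex1* and *Gadd45g*), and from d3 EpiLC to EpiSC 4 were higher (*Apex1*, *Mbd2*, *Mat2a* and *Ahcy*) and 2 lower (*Gadd45a* and *Gadd45b*).

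**Figure D2:**
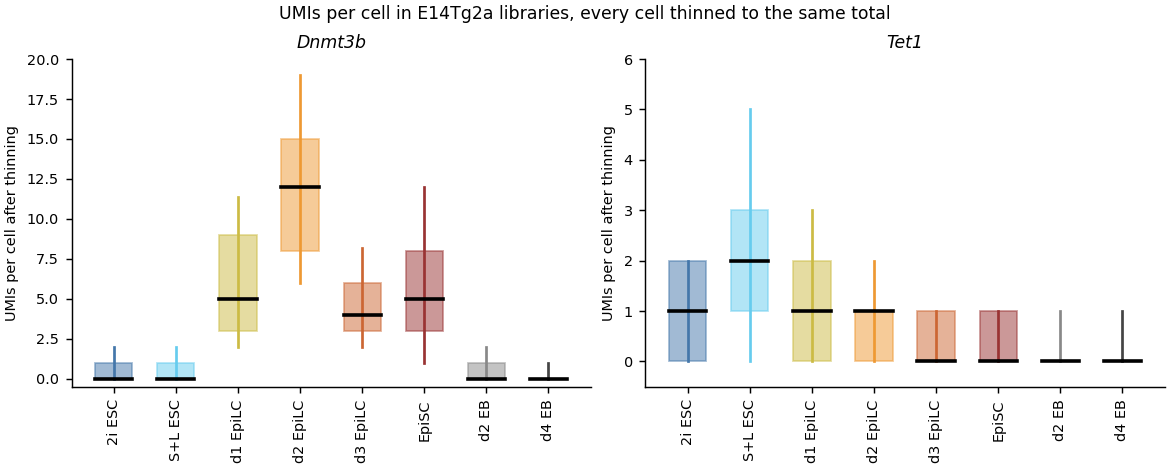
UMIs of *Dnmt3b* (left) and *Tet1* (right) per cell in the 8 E14Tg2a libraries after each cell was thinned to 15374 UMIs. Bars span the quartiles, lines the 10th to 90th percentile and black marks the median, and *Dnmt3b* stands at a median of 5, 12, 4 and 5 UMIs in d1, d2 and d3 EpiLC and EpiSC and at 0 in the other libraries.

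The gain of *Dnmt3b* was shared by nearly all cells. After each cell was thinned to 15374 UMIs, at least 3 UMIs of *Dnmt3b* were found in 2.24% of 2i ESC, 84.6% of d1 EpiLC, 98.2% of d2 EpiLC, 79.9% of d3 EpiLC and 77.3% of EpiSC. EpiSC were the most uneven of these, with a variance over mean of 3.18 against 2.08 in d2 EpiLC and 1.70 in d3 EpiLC. Of 361 thinned EpiSC, 6.65% had 0 UMIs of *Dnmt3b*, where a Poisson distribution of the same mean gives 0.26%. These 24 cells had a mean of 6.58 UMIs of formative and primed markers against 6.38 in the remaining EpiSC, 1.33 UMIs of PGC markers against 0.401 and 9.42 UMIs of S phase markers against 13.2. They had been read at a median of 27064 UMIs before thinning against 32091 in the others. The part of these differences in the result was not tested.

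In d1 EpiLC, 8 of 267 thinned cells (3.00%, beside 0.193% under a Poisson distribution) had 0 UMIs of *Dnmt3b*, and these had a mean of 8.88 UMIs of naive markers against 4.69 in the others and 3.12 UMIs of formative and primed markers against 7.12. Over the cells of that library, which share one library and were thinned to one depth, Spearman's rho was 0.37 between *Dnmt3a* and *Dnmt3b*, 0.38 between *Dnmt3b* and the formative and primed markers and -0.32 between *Dnmt3b* and the naive markers. *Uhrf1* followed S phase markers within libraries, with a rho of 0.24 in 2i ESC, 0.29 in EpiSC, 0.39 in d2 EB and 0.36 in d4 EB. These are descriptions of sparse counts.

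Serum culture differed from 2i mainly in the TET genes, *Dnmt3a* and *Dnmt3l*. From 2i ESC to S+L ESC, 3 members were called higher (*Dnmt3a*, *Dnmt3l* and *Tet3*) and 0 lower, beside 9.73% and 2.41% of all genes. *Dnmt3a* stood 5.20-fold higher (3.69 to 7.50), *Dnmt3l* 2.12-fold (1.85 to 2.43) and *Tet3* 20.8-fold, with an interval of 3.39 to 855 that rests on the single UMI in 2i ESC. *Tet1* and *Tet2* stood 1.94-fold (1.77 to 2.13) and 1.95-fold (1.62 to 2.35) higher, below the fold required, and the ratio of *Dnmt3b* was 0.923. With scaling by trimmed means of M values (TMM), the log2 ratio of *Dnmt3l* went from 1.06 to 0.99, and it was no longer called. Naive markers summed to 1483 and 1479.5 CPM in 2i and S+L ESC. Of 32 other pathway genes, *Apobec1*, *Gadd45b* and *Gadd45g* were higher and 0 were lower.

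PGCLC and the other EB cells both had lost most of the de novo transcripts of d2 EpiLC. In listed d2 PGCLC, 1 member was higher than in d2 EpiLC (*Tet2*) and 3 were lower (*Dnmt3a*, *Dnmt3b* and *Dnmt3l*), beside 9.13% and 11.3% of all genes. In the other d2 EB cells, 1 was higher (*Tet2*) and 4 were lower (*Dnmt3a*, *Dnmt3b*, *Dnmt3l* and *Tet1*), beside 14.5% and 11.6%. These comparisons share the d2 EpiLC library.

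*Dnmt3b* was read at 40.6 CPM in d2 PGCLC, 47.6 in other d2 EB cells, 27.5 in d4 PGCLC and 14.4 in other d4 EB cells. Both d2 groups lie far below d2 EpiLC, by 19.7-fold in PGCLC (16.4 to 23.8) and 16.8-fold in the other cells, and the ratio between them was 0.852 (0.693 to 1.04). At d4 the level in PGCLC was 1.91-fold that of the other cells (1.23 to 2.88). The other cells stood 3.31-fold below their d2 level (2.72 to 4.06) and PGCLC 1.48-fold below theirs (0.976 to 2.30).

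*Dnmt3a* was lower in PGCLC at both times, with 16.4 CPM against 30.9 at d2 and 18.0 against 48.7 at d4, where the difference was 2.70-fold (1.71 to 4.53). *Dnmt3l* was read higher in listed PGCLC than in other EB cells. It stood at 11.9 CPM (35 UMIs) against 1.11 (13 UMIs) at d2. At d4 it stood at 18.0 against 0.117 CPM, a single UMI in 324 cells. The d2 ratio was 10.8 (5.55 to 22.2) and the d4 ratio 154 (24.5 to 6399). *Dnmt3l* was found in few listed cells all the same, in 12 of 91 at d2 and 8 of 44 at d4.

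The TET genes did not share a direction. *Tet1*, which the study placed in its PGCLC gene set on these cells, was read at 33.1 CPM in d2 PGCLC against 12.4 in other d2 EB cells and at 65.4 against 10.3 CPM at d4, with ratios of 2.67 (2.04 to 3.48) and 6.36 (4.57 to 8.81). *Tet2* was read at 6.82 against 2.65 CPM at d2 and at 25.6 against 7.72 CPM at d4, with ratios of 2.58 (1.39 to 4.67) and 3.32 (2.04 to 5.26). *Tet3* ran the other way, with 2.73 against 8.36 CPM at d2 and 2.84 CPM (3 UMIs) against 24.1 at d4, where it was 8.47-fold lower in PGCLC (2.86 to 41.4).

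Of the summed TET UMIs of d4 PGCLC, again shares that depend on capture, 69.7% were *Tet1* (59.6% to 78.5%), 27.3% *Tet2* (18.8% to 37.1%) and 3.03% *Tet3* (0.629% to 8.60%), whereas in other d4 EB cells the shares were 24.4% (20.1% to 29.2%), 18.3% (14.5% to 22.7%) and 57.2% (51.9% to 62.4%). The maintenance factors differed less. *Uhrf1* was read at 64.4 against 92.0 CPM at d2 and at 36.0 against 69.8 CPM at d4, and *Dnmt1* at 52.5 against 60.7 and 46.5 against 77.3 CPM, all below the fold required.

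At d2, the higher level of *Dnmt3l* and *Tet1* in PGCLC depended on how PGCLC were defined. With cells taken by PGC markers (UMIs of at least 3 of 6 and none of *Klf4*) in place of the listed cells, the log2 ratio was -0.45 for *Dnmt3l* and -0.17 for *Tet1*, whereas at d4 that of *Tet1* was 1.80. Listed cells that did not meet this rule held 1790718 of the 2933129 UMIs of all genes at d2 and 682474 of 1054626 at d4. They held 33 of 35 *Dnmt3l* UMIs at d2 and 17 of 19 at d4, and 28 of 29 *Dnmt3b* UMIs at d4. For *Tet2* they held 15 of 20 UMIs at d2, within counting error of their share, and 23 of 27 at d4. Listed cells that met the rule had 2.69 CPM of *Dnmt3b* at d4 (1 UMI), against 14.4 CPM in the other d4 EB cells. For *Tet2* they had 4.38 CPM at d2 (5 UMIs) and 10.7 CPM at d4 (4 UMIs), against 2.65 and 7.72 CPM in the other EB cells.

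Counted over the members, 3 were higher in d2 PGCLC than in other d2 EB cells (*Dnmt3l*, *Tet1* and *Tet2*) and 1 lower (*Tet3*), beside 6.06% and 10.3% of all genes. At d4 the same 3 were higher and 2 lower (*Dnmt3a* and *Tet3*), beside 8.64% and 31.3%. The d4 background leans strongly to lower calls, with a median log2 ratio of -0.46 over all genes, and TMM scaling would move every log2 ratio there by 0.31, with which *Dnmt3b* would be called higher (1.18 in place of 0.89). From d2 to d4 PGCLC 1 member was higher (*Tet2*, 3.75-fold, 2.03 to 7.06) and 0 lower, beside 5.98% and 12.5%, and with TMM scaling *Tet1* would be called as well (1.05 in place of 0.96). In the other cells 2 were higher (*Tet2* and *Tet3*) and 1 lower (*Dnmt3b*), beside 10.6% and 4.17%. With both times pooled, 3 members were higher in PGCLC and 2 lower, beside 6.41% and 14.6%, of which *Dnmt3a* (-1.15) would not be called with TMM scaling (-0.99).

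**Figure D3:**
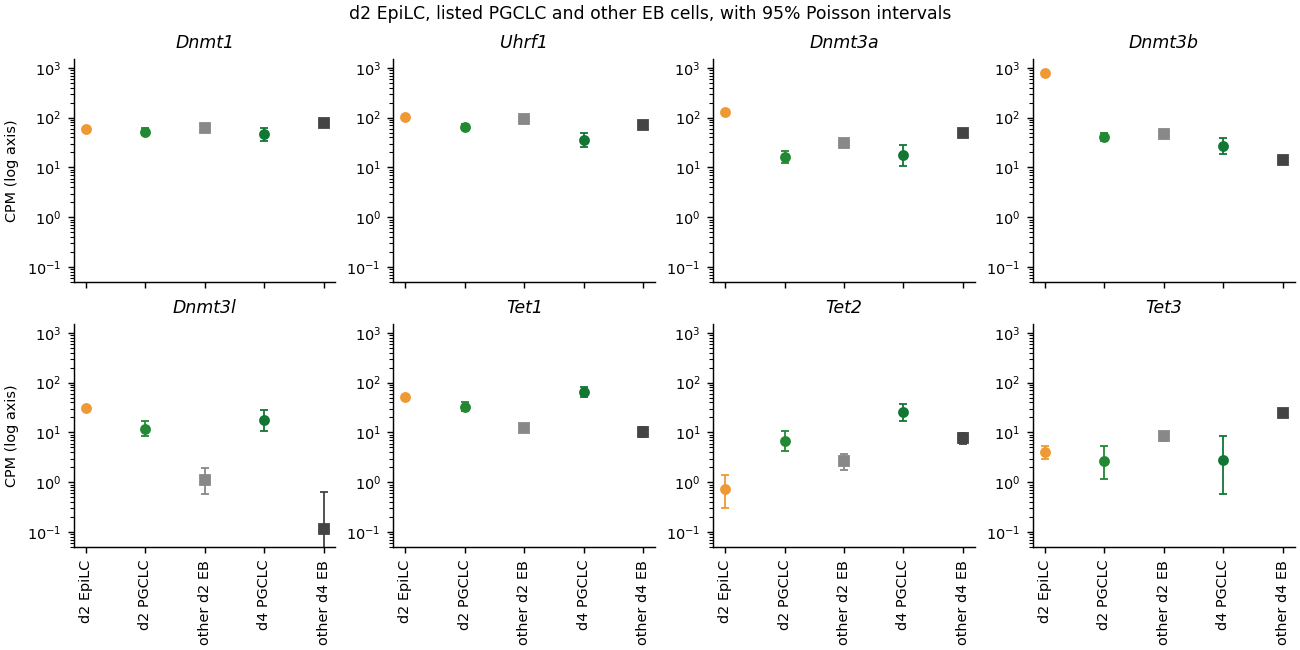
Level of each of the 8 genes in CPM (log axis) in d2 EpiLC, listed PGCLC and the other EB cells at d2 and d4, with exact 95% Poisson intervals (cut at the lower end of the axis for *Dnmt3l* at d4). *Dnmt3b* drops from over 782 CPM in d2 EpiLC to 47.6 CPM or less in the EB groups, and *Tet3* at d4 is low in PGCLC (2.84 CPM) and high in the other cells (24.1 CPM).

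The listed and other cells differ in their makeup. Summed naive markers were 627 CPM in d2 PGCLC against 266 in other d2 EB cells and 1213 against 329 CPM at d4, summed extraembryonic mesoderm markers 93.1 against 1025 and 19.0 against 606 CPM, and summed extraembryonic ectoderm markers 30.7 against 124 and 79.6 against 949.7 CPM. Of the 7 extraembryonic ectoderm markers, *Elf5* was at 0 in PGCLC at both times and in the other d2 EB cells. Leaving out other EB cells with UMIs of at least 3 of these markers moved no ratio beyond its interval. Within the other d4 EB cells, *Dnmt3b* was read at 26.4 CPM in the 28 cells with extraembryonic ectoderm markers (18.6 to 36.4) and at 9.74 CPM in the 222 with extraembryonic mesoderm markers (7.16 to 13.0). *Dnmt3a* had the opposite order, with 19.3 CPM (12.7 to 28.0) and 60.3 CPM (53.6 to 67.7).

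Among 32 other pathway genes tested at d2, *Uhrf2*, a paralog of *Uhrf1*, stood higher in PGCLC than in d2 EpiLC (95.5 against 29.4 CPM), together with *Prdm14*, *Dppa3*, which shields maternal methylation and displaces UHRF1 (103 against 2.15 CPM), *Ogt*, *Gadd45b*, *Mbd1* and *Mbd2*, and *Apobec1* and *Gadd45g* stood lower. *Uhrf2* was also higher in the other d2 EB cells (66.4 CPM), where 6 of 33 were higher and 2 lower. Between PGCLC and other cells at d2, 4 were higher (*Prdm14*, *Dppa3*, *Zfp57* and *Gadd45a*) and 1 lower (*Gadd45g*). At d4 5 were higher, with *Hells* at 175 against 81.9 CPM added to those 4, and 4 lower (*Smug1*, *Gadd45g*, *Cxxc4* and *Mbd2*). *Prdm14* and *Dppa3* are PGC markers by which the cells are known.

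The listed PGCLC were not uniform in these genes. In a division chosen after the data were seen, cells with UMIs of at least 3 of 6 PGC markers (*Prdm1*, *Dppa3*, *Prdm14*, *Tfap2c*, *Nanos3* and *Dnd1*) and none of *Klf4* were set apart, which gave 38 of the 91 listed d2 cells and 17 of the 44 listed d4 cells. Only 8 further cells of d2 EB and 1 of d4 EB met the rule without being listed. In these PGC-marker cells 0 members were higher than in the other listed cells and 4 of 7 tested were lower at d2 (*Dnmt3b*, *Dnmt3l*, *Uhrf1* and *Tet1*), beside 2.83% and 5.33% of all genes, and at d4 0 were higher and 5 of 7 lower (*Dnmt3a*, *Dnmt3b*, *Dnmt3l*, *Uhrf1* and *Tet2*), beside 6.09% and 10.8%.

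At d2, *Dnmt3b* was read at 14.9 CPM in PGC-marker cells (17 UMIs) against 57.0 CPM in the other listed cells, 3.83-fold lower (2.28 to 6.83). *Uhrf1* was read at 22.8 against 91.0 CPM, 4.00-fold lower (2.63 to 6.31), and was detected in 12 of 38 cells against 40 of 53. The *Uhrf1* level of the listed cells with fewer markers lies close to the 92.0 CPM of the cells that were not listed. *Dnmt3l* was read at 1.75 CPM (2 UMIs) against 18.4, 10.5-fold lower (2.69 to 90.5), and *Tet1* at 17.5 against 43.0 CPM, 2.46-fold lower (1.49 to 4.24). *Dnmt1*, at 39.4 against 60.9 CPM, *Dnmt3a*, at 10.5 against 20.1, and *Tet2*, at 4.38 against 8.38, were not called.

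At d4 the same division rested on fewer UMIs. *Dnmt3a* had 0 UMIs in the 17 PGC-marker cells, with an exact upper limit of 9.91 CPM, against 27.8 CPM in the other listed cells (16.8 to 43.5). *Dnmt3b* had 1 UMI (2.69 CPM) against 28 (41.0 CPM), a 15.3-fold difference with an interval of 2.52 to 624. *Uhrf1* was read at 10.7 against 49.8 CPM, 4.64-fold lower (1.65 to 18.0). *Tet1* and *Dnmt1* were not called, with 56.4 against 70.3 CPM for *Tet1* (ratio 0.802, 0.456 to 1.37) and 48.4 against 45.4 CPM for *Dnmt1*.

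**Figure D4:**
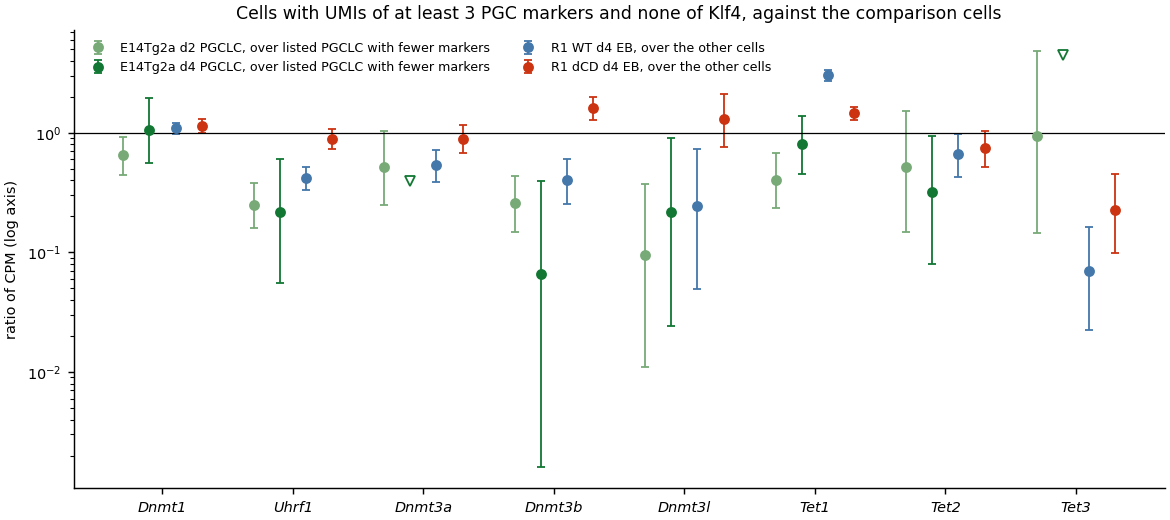
Ratio of CPM (log axis) of each of the 8 genes between listed E14Tg2a PGCLC with PGC markers and the other listed PGCLC at d2 (38 and 53 cells) and d4 (17 and 27 cells), with exact 95% intervals. Further points give PGC-marker cells over the other cells of the R1 WT and R1 dCD d4 EB libraries. Open triangles give the upper 95% limit where the PGC-marker cells had 0 UMIs (*Dnmt3a* and *Tet3* at d4 in E14Tg2a). *Dnmt3b*, *Uhrf1* and *Dnmt3l* lie below 1 at both times in E14Tg2a, and *Dnmt3b* lies at 0.401 in R1 WT and 1.60 in R1 dCD.

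Other measures moved with this division. PGC-marker cells were read at a median of 26834.5 against 34050 UMIs per cell at d2 and 22147 against 25578 at d4. Summed naive markers, of which the rule used *Klf4*, were 499.8 against 708 CPM at d2 and 951 against 1355 CPM at d4, and S phase markers 536 against 632 and 543 against 478 CPM. Extraembryonic ectoderm markers were 44.6 against 21.8 CPM at d2 and 121 against 57.1 CPM at d4. Their part in the result was not tested. Of the 30 other pathway genes tested at d2, only *Prdm14* and *Dppa3* were called, which the rule used. At d4, beyond *Prdm14* and *Dppa3*, *Uhrf2* was higher (83.3 against 41.0 CPM) and *Usp7*, *Zfp57*, *Ehmt2* and *Ahcy* were lower. Over the 91 listed d2 cells, Spearman's rho with the summed PGC markers was -0.47 for *Uhrf1* and -0.31 for *Dnmt3b*, and rho was 0.52 between *Dnmt3b* and *Dnmt3l*.

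In R1 d4 EB, *Dnmt3b*, *Dnmt3l*, *Tet1* and *Tet2* stood furthest above WT in dCD. *Dnmt3a* and *Uhrf1* were slightly higher and *Tet3* slightly lower, each beyond counting error. None of the 8 members reached the fold required in the whole library. *Dnmt3b* was read at 30.7 CPM in WT and 57.0 in dCD, a ratio of 1.85 (1.69 to 2.04). *Dnmt3l* stood at 6.51 and 13.5 CPM (2.07, 1.69 to 2.56), *Tet1* at 87.3 and 170.4 CPM (1.95, 1.84 to 2.06) and *Tet2* at 22.5 and 45.8 CPM (2.04, 1.83 to 2.28). With 1 CPM added to both groups, 0 members were called higher and 0 lower, beside 6.31% and 3.68% of all genes, and the median log2 ratio of the members was 0.61 beside 0.03 over all genes. *Dnmt1*, at 185 and 192 CPM (1.04, 0.994 to 1.08), *Uhrf1*, at 106 and 124 (1.18), *Dnmt3a*, at 47.7 and 61.3 (1.28), and *Tet3*, at 37.3 and 32.7 (0.877, 0.792 to 0.971), lay closer. Of 33 other pathway genes only *Gadd45g* was called, lower in dCD (28.0 against 102 CPM).

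Cell makeup differed between these libraries. Summed extraembryonic mesoderm markers were 1274 CPM in WT and 316 in dCD, naive markers 531 and 746, extraembryonic ectoderm markers 129.8 and 263, S phase markers 1005 and 1159, PGC markers 108 and 104 and 2-cell-like markers 0.0486 and 23.9 CPM. Cells with at least 3 naive markers numbered 261 in WT and 603 in dCD. Among the 1041 cells of each library with neither PGC nor naive markers, 3 members were called higher in dCD (*Dnmt3b*, *Dnmt3l* and *Tet1*) and 0 lower, beside 7.50% and 3.78%. There *Dnmt3b* was read at 22.9 and 58.9 CPM (2.57, 2.25 to 2.94), *Tet1* at 31.6 and 81.0 CPM (2.57, 2.29 to 2.88) and *Dnmt3l* at 0.214 CPM (3 UMIs) and 4.01 CPM (18.8, 6.06 to 94.2). Makeup still differed in these cells. Extraembryonic mesoderm markers were 1505 CPM in WT and 441 in dCD, formative and primed markers 20.3 and 54.2 and 2-cell-like markers 0 and 18.0. The part of makeup in the result was not tested. In naive-marker cells the de novo genes had no common direction, with *Dnmt3b* at 60.2 and 51.2 CPM (0.851, 0.735 to 0.988), *Dnmt3l* at 26.7 and 25.1 CPM (0.938, 0.754 to 1.17) and *Dnmt3a* at 37.8 and 53.0 CPM (1.40, 1.18 to 1.67). The naive-marker cells of the 2 libraries were not alike either. Their extraembryonic mesoderm markers were 1049 CPM in WT and 183 in dCD, and their 2-cell-like markers 0.209 and 33.8. Among all cells outside the PGC-marker group 1 member was higher (*Tet1*, 2.24, 2.11 to 2.39) and 0 lower, beside 6.87% and 4.07%.

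Cells that met the same PGC marker rule numbered 114 in WT and 55 in dCD, and they lay in different clusters. When all R1 cells were clustered together, a choice made after the data were seen, 47 of the WT cells fell in a cluster led by *Dppa3*, *Nanos3* and *Tcea3* and 65 in one led by *Lefty1*, *Igfbpl1* and *Fgf8*, which held 2 and 3 of the dCD cells. Of the dCD cells, 34 fell in a cluster led by *Rhox5*, *Dppa3* and *Rhox9* that held 1 WT cell in all. With 1 library per genotype, such clusters may reflect the library, so that values of WT and dCD compare cells alike in a few markers and not one cell type. In these cells 6 members were called higher in dCD and 0 lower, beside 11.1% and 5.71% of all genes. With each cell thinned to 6831 UMIs, 3 were called, and with TMM scaling *Dnmt3a* was not (0.94 in place of 1.02). *Dnmt3b* was read at 13.0 CPM in WT and 88.8 in dCD, a ratio of 6.82 (4.28 to 11.3), and *Uhrf1* at 46.4 and 112 CPM (2.41, 1.80 to 3.24). *Dnmt3l* stood at 1.70 CPM (3 UMIs) and 17.4 CPM (10.2, 2.99 to 54.2), *Dnmt3a* at 26.6 and 55.0 (2.07, 1.38 to 3.11), *Tet2* at 15.3 and 34.7 (2.27, 1.34 to 3.89) and *Tet3* at 2.83 and 7.72 (2.73, 0.787 to 10.6). *Tet1*, at 225 and 243 CPM (1.08, 0.921 to 1.27), and *Dnmt1*, at 199.7 and 217 (1.09), were close.

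Extraembryonic ectoderm markers were unequal in these cells, with all 7 detected in dCD and 6 in WT, where *Elf5* was at 0, and a sum of 79.8 CPM in WT and 669.5 in dCD. Without the 4 WT and 14 dCD cells that had at least 3 of them, 110 and 41 cells were left, with *Dnmt3b* at 11.3 and 83.6 CPM, *Uhrf1* at 46.2 and 105, *Dnmt3a* at 27.2 and 69.4, *Dnmt3l* at 1.78 and 14.2 and *Tet1* at 223 and 248 CPM. In the cells left, *Dnmt3b*, *Uhrf1*, *Dnmt3a* and *Dnmt3l* each stood more than 2-fold higher in dCD. These cells may hold UMIs of fewer than 3 of the markers, and the part of extraembryonic ectoderm content in the result was not tested. Of 32 other pathway genes, *Zfp57* (4.53 and 35.7 CPM), *Gadd45b* and *Gadd45g* were higher in dCD and *Uhrf2* was lower (104 and 49.2 CPM).

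**Figure D5:**
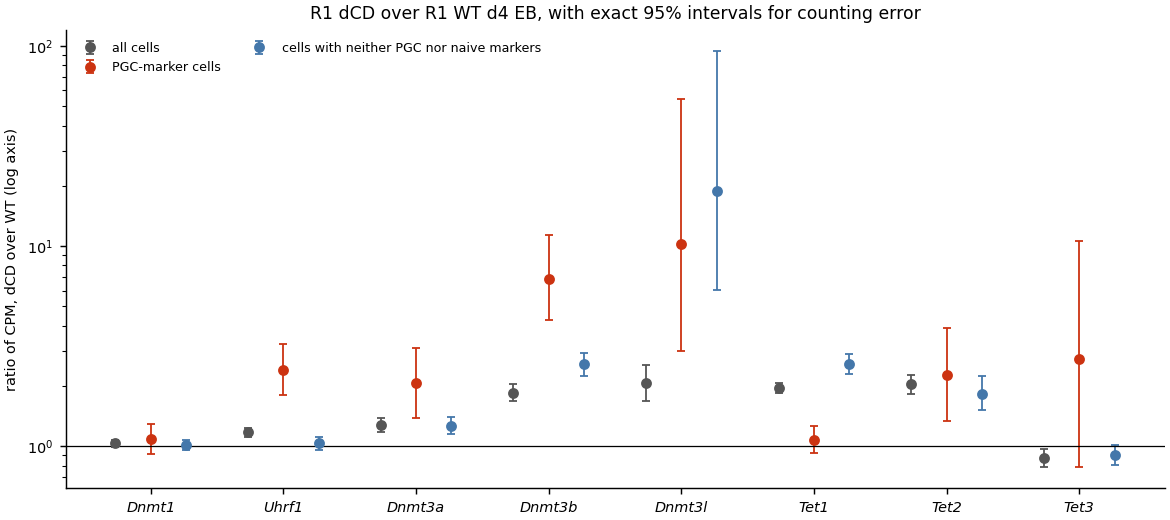
Ratio of CPM in dCD over WT R1 d4 EB (log axis) of each of the 8 genes in whole libraries, in PGC-marker cells and in cells with neither PGC nor naive markers, with exact 95% intervals. In PGC-marker cells *Dnmt3b* lies at 6.82 and *Tet1* at 1.08.

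Set against the rest of the WT library, PGC-marker cells had 1 member higher (*Tet1*) and 4 lower (*Dnmt3b*, *Dnmt3l*, *Uhrf1* and *Tet3*), beside 7.13% and 23.5% of all genes. *Tet1* stood 3.02-fold higher (2.69 to 3.37), *Dnmt3b* 2.49-fold lower (1.64 to 3.96), *Uhrf1* 2.40-fold lower (1.92 to 3.03), *Dnmt3l* 4.10-fold lower and *Tet3* 14.3-fold lower (6.11 to 44.2). In dCD 0 members were higher and 1 lower (*Tet3*, 4.39-fold, 2.22 to 10.2), beside 2.73% and 14.2%, with ratios of 1.60 for *Dnmt3b* (1.28 to 1.98), 0.896 for *Uhrf1* (0.738 to 1.08) and 1.46 for *Tet1* (1.28 to 1.65). The rest of the WT library was itself uneven, since its 261 naive-marker cells held 128 of its 131 UMIs of *Dnmt3l*. Against these naive-marker cells, PGC-marker cells stood lower by 15.8-fold for *Dnmt3l* (5.27 to 77.4), 4.63-fold for *Dnmt3b* (3.02 to 7.41) and 2.46-fold for *Uhrf1* (1.95 to 3.14). The naive-marker cells were mixed, with PGC markers at 159.6 CPM and extraembryonic mesoderm markers at 1049 CPM. Only 47 of 173 WT cells in the cluster led by *Dppa3* and 65 of 116 in that led by *Lefty1* met the PGC rule. The rest of the library thus holds cells of the same clusters. Against the 1041 WT cells with neither kind of marker, *Uhrf1* was 2.38-fold lower (1.90 to 3.01) and *Dnmt3b* 1.76-fold lower (1.15 to 2.82), whereas *Dnmt3l* was higher, at 1.70 and 0.214 CPM with 3 UMIs in each (7.94, 1.06 to 59.3). *Tet1* was 7.11-fold higher than in these cells (6.20 to 8.16). It was close to the WT naive-marker cells, at 225 and 200.2 CPM (1.12, 0.996 to 1.26). Lower *Uhrf1* and *Dnmt3b* than in the other cells of their group were thus read in PGC-marker cells of both WT lines, E14Tg2a and R1, with the comparison group defined differently in each. The levels of the lines themselves were not compared.

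Over the 8 E14Tg2a libraries, the genes with the pattern most like each member, by Pearson's r of log2(CPM + 1) among 8958 genes, were *Sirt6* (0.967), *Tfip11* (0.958) and *Alkbh8* (0.956) for *Dnmt1* and *Nubp2* (0.977), *1700007K13Rik* (0.974) and *Ubtf* (0.964) for *Uhrf1*. For *Dnmt3a* they were *Kdm2a* (0.976), *Fam3c* (0.964) and *Kdm2b* (0.958), for *Dnmt3b* *Pou3f1* (0.973), a formative transcription factor gene, *Gm15706* (0.966) and *Cdh10* (0.965), and for *Dnmt3l* *Platr17* (0.997), *Zfp987* (0.993) and *Rex2* (0.988). For *Tet1* they included *Frrs1* (0.982) and *Pou4f1* (0.974), for *Tet2* *Pde8a* (0.995), *Mapt* (0.968) and *Nemp1* (0.967), and for *Tet3* *Rilpl1* (0.978), *Cyren* (0.976) and *Zfp866* (0.973). Among the members themselves r was 0.91 between *Dnmt3l* and *Tet1*, 0.67 between *Dnmt3a* and *Dnmt3b*, -0.73 between *Tet1* and *Tet3* and -0.82 between *Dnmt3b* and *Tet2*. These are descriptions over 8 libraries of one line.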

How the data were processed

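Droplet-based scRNA-seq was deposited as UMI counts per gene and cell, with no scaling by the authors. For E14Tg2a (2782 cells), the authors made the counts with Cell Ranger, per the labels, on GRCm38 and equalised the mapped reads per cell between libraries before counting. For R1 (3115 cells), the authors removed cells with fewer than 2000 expressed genes, and the aligner is not given in the sources used here, nor is the gene annotation of either table. An empty line splits the E14Tg2a header, which was rejoined and left 1 barcode of another length than the rest. Cells were assigned to stages by barcode suffix and to PGCLC by the barcodes listed in the study's supplement. GENCODE vM21 gave symbols to 27645 identifiers, and 0 columns of values were left unused. Promoter sequences are from RefSeq on GRCm38.p6.

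UMIs were summed per group and scaled to CPM, with exact Poisson, conditional and Clopper-Pearson intervals at 95%. With 1 library per condition, no test was run. Library totals of 8757170 to 22887974 UMIs set the precision. Cells were thinned to 15374 UMIs in E14Tg2a and 6831 in R1 for values per cell, and shallower cells were left out there. Scrublet in scanpy called 0.589% to 6.23% of cells doublets, which were kept. In R1, PGC-marker cells were those with UMIs of at least 3 of 6 PGC markers and none of *Klf4*, and all cells were clustered by the Leiden method (2000 variable genes, 30 components, 15 neighbours, resolution 1, igraph 0.11.9). Alternatives changed the pseudocount, the minimum of UMIs, the scaling, the depth, the doublets and the cells compared.

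The members and gene lists were chosen with earlier results of these data known. Genes named are the 8 members, the 3 genes most like each over libraries (at least 100 UMIs and a range of at least 1 in log2), other pathway genes at least 2-fold apart, and cell type markers. One of the genes most like *Tet1* is not reported here. Python 3.11.15, numpy 2.4.6, scipy 1.17.1, pandas 2.3.3, scanpy 1.11.5 and matplotlib 3.10.9 were used (seed 1), with edgeR 4.0.16 in R 4.3.3 for TMM scaling only. The computation was tested on simulated data.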

Additional observations from a re-analysis of the deposited data

Results flagged for a closer look

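The level of *Dnmt3b* in PGC-marker cells over the rest of the same R1 d4 EB library differed between genotypes. The ratio was 0.401 in WT, where PGC-marker cells stood lower (inverse 2.49, 1.64 to 3.96), and 1.60 in dCD (1.28 to 1.98), where they stood higher. The PGC-marker cells of the genotypes lay in different clusters. Each genotype had 1 library, so the difference was not tested.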

How the results depend on the processing

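Of 871 log2 ratios of members under alternatives, over 21 comparisons, 818 moved by less than the counting interval, 51 moved further and 2 reversed. A change of sign was counted as a reversal only where the main log2 ratio was at least 1 in size. Smaller ratios that changed sign are among the 818 and 51. The 2 reversals came with PGCLC taken by PGC markers in place of the listed cells, against other d2 EB cells, where the log2 ratio was -0.45 for *Dnmt3l* and -0.17 for *Tet1*. Under that setting 3 members were called in PGCLC against other EB cells with both times pooled, in place of 5. Of 116 counts of called members, 98 stayed within 1.5 times. With at least 100 UMIs required, fewer members were tested, and the count became 1 from d1 to d2 EpiLC, 0 from d3 EpiLC to EpiSC, 0 from d2 to d4 PGCLC, 2 for d2 PGCLC and 3 for d4 PGCLC against other cells, 2 and 0 for the division of listed d2 and d4 PGCLC by markers, and 3 for PGC-marker cells of dCD against WT. From d2 to d4 PGCLC it became 2 with TMM scaling and 2 with thinned cells. For dCD against WT it became 1 with a pseudocount of 0.5 CPM, 1 with thinned cells, 1 without doublets, 1 without PGC-marker cells and 3 without PGC-marker and naive-marker cells, the last chosen after seeing the data. With thinned cells it became 3 for PGC-marker cells and 0 for the rest. Except where fewer genes were tested, the cause was not tested. TMM scaling moved all log2 ratios by -0.28 from 2i ESC to d2 EpiLC and by 0.31 for d4 PGCLC against other d4 EB cells, and changed the sign of *Dnmt1* in 3 comparisons where it was not called. It changed 6 calls of single members, namely *Uhrf1* from d1 to d2 EpiLC (-1.08, now lower), *Dnmt3l* in S+L ESC over 2i ESC (0.99, lost), *Tet1* from d2 to d4 PGCLC (1.05, now higher), *Dnmt3b* in d4 PGCLC over other d4 EB cells (1.18, now higher), *Dnmt3a* in pooled PGCLC over other EB cells (-0.99, lost) and *Dnmt3a* in dCD over WT PGC-marker cells (0.94, lost). It also made d1 EpiLC in place of d4 EB the library with the highest *Dnmt1*. No paired analysis was possible because each condition had 1 library, and for the same reason no replicate could be left out. Members with few UMIs (*Tet2* and *Tet3* in EpiLC, *Dnmt3l* in EpiSC and EB) are limited by depth.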
